A study of Mus musculus with 12 samples.

Results

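The comparison set day 7 of normoxic culture against days 1 to 3 of the same culture in immortalized tumor-initiating cells (iTICs) of the mouse, measured with 1-colour Illumina bead arrays of the Mouse WG-6 v2.0 type. It used 6 of the 12 arrays of the series, chosen by the culture day in their names, and covered 10365 genes. The day 7 group was replicates 1, 2 and 3 of cells kept for 7 days in DMEM-based standard medium at 21% oxygen. The days 1 to 3 group was 1 array each for day 1, day 2 and day 3 in the same medium and oxygen. The remaining arrays were days 4, 5 and 6, with 1 array each, and 3 arrays of cells at 3% oxygen in a mammary stem cell medium without serum that held 2% of the basement membrane extract Cultrex, here called hypoxic. These entered the normalization and are given as context. All normoxic cells had left the hypoxic medium and the low oxygen together, so time since the medium change and time since the oxygen change cannot be told apart. The labels do not say whether the cells were 1 clone, or whether the day 7 replicates were separate cultures. The p-values therefore rest on a spread that may be technical. The spread within days 1 to 3 also holds the differences between those days.

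Sample names were in conflict between the deposited tables. In the authors' processed table only 1 of 6 signal columns held the array of its own name. The array called day 7 replicate 2 here stood there under the name of day 7 replicate 1, and the array called day 7 replicate 3 stood there under day 2. The order of the detection columns, cut after the first 6, also split the 12 arrays into 2 sets of 6. Day 7 replicates 2 and 3 were in the first, and day 7 replicate 1 and days 1 to 3 in the other. The 6 arrays that the processed table held were those of the first set. That these sets are batches is inferred, not stated. Results are therefore given with all 3 day 7 arrays and, where marked "replicate 1 alone", with the 1 day 7 array that shares its set with days 1 to 3. That array has no replicate there, so its spread was assumed to equal that of days 1 to 3. Its values are part of the comparison itself and are no independent check of it. The share of the 45281 probes detected ranged over 34.3% to 37.7% among the 12 arrays, and the number of arrays limits the precision of every value. The median SD over genes was 0.189 on day 7 and 0.228 on days 1 to 3, on the log2 scale.

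Mammary epithelium has an inner luminal layer marked by keratins 8 and 18 and an outer basal layer marked by keratins 5 and 14. Stratified and squamous epithelia build a cornified envelope instead, a protein shell of loricrin, involucrin and small proline-rich proteins crosslinked by transglutaminase, and shed their outer cells with the help of kallikrein proteases. Mammary tumour cells in culture can express parts of this squamous programme. Interferons act through a transcription factor complex that holds IRF9 and binds the interferon-stimulated response element (ISRE) in promoters of genes for antiviral proteins and for antigen presentation.

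Promoter sequences are shown for 4 interferon-stimulated genes that rose and 4 genes of the cornified envelope that fell, from RefSeq on build GRCm38.p6, each read 5′ to 3′ on the gene's own strand. All were picked among members that hold the motif described here, the interferon-stimulated genes by the size of their change, and the envelope genes as envelope proteins that the text describes and not as those that changed most. In the first 4, capitals mark the core of an ISRE, which is TTTC, then 2 bases of any kind, then TTTC, on either strand. In the last 4 they mark the AP-1 site TGANTCA on either strand. Matches that overlap each other are shown as 1 run of capitals.
Isg15 (chr4:156200855-156200916, minus strand): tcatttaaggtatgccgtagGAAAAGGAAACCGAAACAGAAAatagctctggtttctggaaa
Gbp3 (chr3:142559979-142560034, plus strand): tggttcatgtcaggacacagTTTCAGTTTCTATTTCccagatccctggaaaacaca
Ifit3 (chr19:34583353-34583436, plus strand): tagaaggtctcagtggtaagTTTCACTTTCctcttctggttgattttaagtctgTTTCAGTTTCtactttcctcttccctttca
Igtp (chr11:58199502-58199551, plus strand): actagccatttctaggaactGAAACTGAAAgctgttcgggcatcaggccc
Sprr1b (chr3:92438864-92438910, minus strand): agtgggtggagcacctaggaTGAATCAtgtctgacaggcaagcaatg
Sprr1a (chr3:92485971-92486047, minus strand): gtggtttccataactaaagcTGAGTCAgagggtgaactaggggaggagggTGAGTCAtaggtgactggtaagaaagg
Lor (chr3:92083164-92083210, minus strand): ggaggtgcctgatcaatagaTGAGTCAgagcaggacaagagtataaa
Ivl (chr3:92573825-92573871, minus strand): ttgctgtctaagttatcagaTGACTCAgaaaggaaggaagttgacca
Relative to the start site the matches lay from -78 to -57 for Isg15, where 3 overlap, from -45 to -30 for Gbp3, where 2 overlap, from -34 to -25 for Igtp and from -48 to -42 for Lor. Among all 27025 genes with a window from 250 bases before to 50 after the start, 1079 (3.99%) held the ISRE core and 2425 (8.97%) the AP-1 site on either strand. Of the interferon-stimulated genes measured here with a window, 11 of 17 (64.7%) held the ISRE core, and 9 of the 14 that rose (64.3%) did. Of the MHC class I presentation genes measured with a window, 4 of 13 (30.8%) held it, and 2 of the 8 that rose (25.0%) did. Of the cornified envelope genes measured with a window, 10 of 19 (52.6%) held the AP-1 site, and 8 of the 15 that fell (53.3%) did. Over all tested genes the shares hardly differed by direction for the AP-1 site, at 6.11% of genes that rose and 6.09% of genes that fell, and were 4.71% and 2.59% for the ISRE core. None of 8 keratins and none of 7 kallikreins with a window held the AP-1 site. A match is a description of the letters, not a bound site.

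Expression on day 7 differed from days 1 to 3 in 3783 of 10365 genes (36.5%) at an adjusted p below 0.05 in limma's moderated test with Benjamini-Hochberg adjustment. Of these, 1760 rose (17.0% of all genes tested) and 2023 fell (19.5%). At least 2-fold changes among the calls numbered 1474 (14.2%), with 830 higher (8.01%) and 644 lower on day 7 (6.21%). The values of the groups did not overlap in 5277 genes (50.9%), with day 7 above in 2357 (22.7%) and below in 2920 (28.2%). Genes detected on no array of days 1 to 3 made up 111 of the calls, and genes detected on no day 7 array made up 155. The threshold was passed by 364 genes in replicate 1 alone, and by 751 with the array set as a block over the 6 arrays. Leaving out day 7 replicate 2 left 2315 calls. In the lists below, counts of 3 or fewer moved by at most 2 genes when an array was left out. The median difference over all genes was -0.07 and became -0.30 or 0.08 when arrays were scaled to a common median, taken over all probes or over the probes that every array detected. These scalings put 25% or 57.2% of the calls higher on day 7, in place of 46.5%.

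The 6 arrays separated by group along their first principal component, which held 67.9% of the variance. The second held 12.1% and ordered the early arrays by day, with scores of 29.8, -9.0 and -23.8 for days 1, 2 and 3. The day 7 arrays lay between -8.5 and 6.9 on it.

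**Figure D1:**
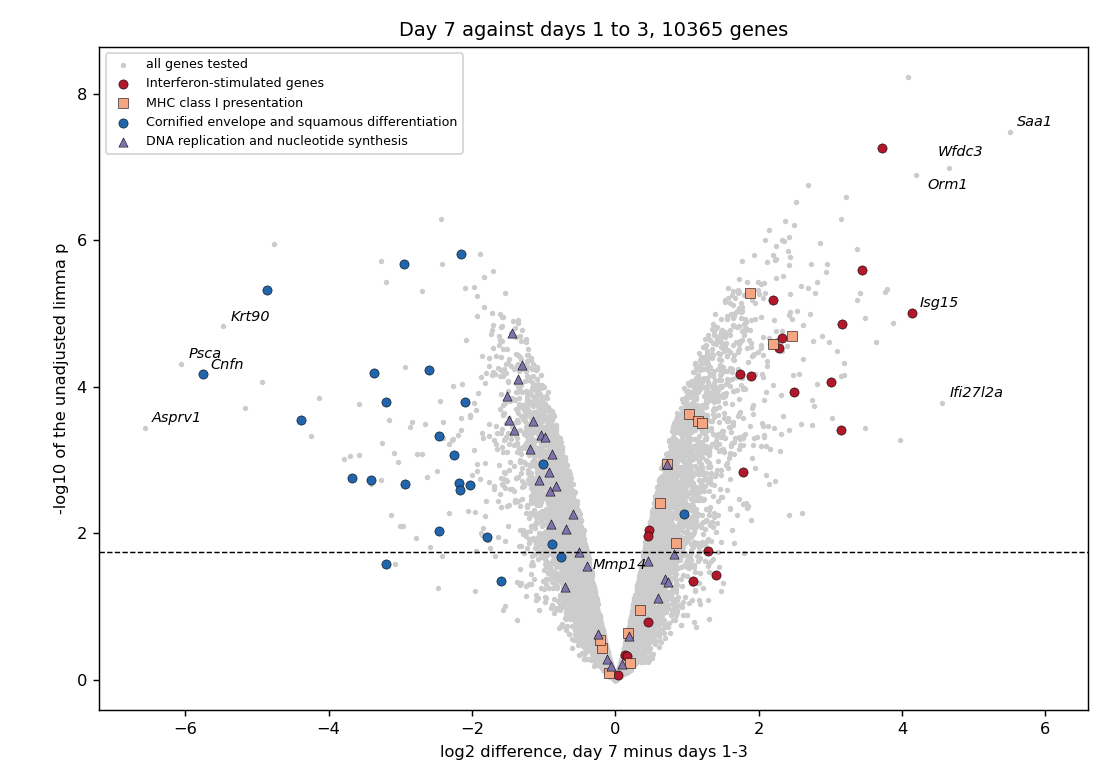
Log2 difference (horizontal, day 7 minus days 1 to 3) against -log10 of the unadjusted limma p (vertical) for 10365 genes, 1 point a gene. The dashed line is the largest p still called after adjustment. Interferon-stimulated genes (red) lie right of 0, most genes of cornification (blue) lie left of -2, and Mmp14 lies just under the line.

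The largest falls were in genes of squamous differentiation. Asprv1, a retroviral-like aspartic protease that processes filaggrin in the epidermis, had log2 intensities of 5.71, 4.77 and 6.09 in day 7 replicates 1 to 3, against 14.42, 12.13 and 9.72 on days 1, 2 and 3. It fell by 6.57 (SE 1.05, adjusted p = 0.00425, limma), the largest fall of all genes. Without background correction the Asprv1 difference was -5.09, so its size depends on how low signals are treated. Cnfn, cornifelin of the cornified envelope, had 5.20, 5.05 and 6.35 on day 7 and 12.92, 10.88 and 10.06 on days 1 to 3 (difference -5.76, SE 0.71, adjusted p = 0.00194, limma). In both genes day 1 was the highest array, day 3 the lowest of the early arrays, and the groups were far apart. Sprr1b, a small proline-rich envelope precursor, had 8.08, 7.72 and 8.25 on day 7 and 13.81, 12.74 and 12.09 on days 1 to 3 (difference -4.86, SE 0.41, adjusted p = 0.000779, limma). Its relative Sprr1a had 6.57, 6.88 and 6.06 on day 7 and 12.40, 10.87 and 9.41 on days 1 to 3 (difference -4.39, SE 0.68). Lor, loricrin, the main envelope protein of the epidermis, had 6.59, 6.52 and 6.62 on day 7, against 11.06, 9.28 and 8.20 on days 1 to 3 (difference -2.93, SE 0.63, adjusted p = 0.0115, limma). Day 7 was thus uniform for loricrin and the early days spread over almost 3 log2 units. In replicate 1 alone the differences of Asprv1, Cnfn, Sprr1b, Sprr1a and Lor were -6.38, -6.09, -4.80, -4.33 and -2.92.

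Of 25 measured genes on the list of cornification and squamous differentiation, 21 fell and 1 rose, with a median difference of -2.46, against -0.07 over all genes. In replicate 1 alone 6 fell past the threshold, and with the array set as a block over the 6 arrays 8 did. The crosslinking enzyme Tgm1 (transglutaminase 1), at 5.31, 5.44 and 6.30 on day 7, had 9.87, 8.27 and 8.52 on days 1 to 3, and was detected on 1 of 3 day 7 arrays. Envoplakin, Evpl, which joins the envelope to desmosomes, had 6.70, 6.15 and 6.01 on day 7 and 10.58, 9.46 and 8.91 on days 1 to 3. Both were thus lower on every day 7 array, where Tgm1 fell by 3.20 and Evpl fell by 3.37. Involucrin (Ivl) fell by 2.19 and periplakin (Ppl) by 2.60. Corneodesmosin (Cdsn), an adhesive protein of corneocytes, fell by 3.41. Corneodesmosin's other probes, which changed by -1.45 and -1.63, did not pass. Among transcription regulators on the list, Grhl3 was detected on no day 7 array and was at least 3.38-fold lower (adjusted p = 0.000612, limma), and Zfp750 fell by 2.10. Klf4, another regulator there, was at -0.76 and did not pass (adjusted p = 0.0556, limma), though it did under 11 of 22 alternatives. Such bounds set the mean of the group that detects a probe against, on each array of the other, the probe's own value or the lowest detected signal, whichever is higher. The single member that rose was Sprr2a1, by 0.96, a call lost without day 7 replicate 2, day 7 replicate 3, day 1 or day 2 (adjusted p of 0.053 to 0.0756). It was also lost with the array set as a block over 12 arrays (0.0534) or over 6 arrays (0.267) and in replicate 1 alone (0.323).

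Keratins, the intermediate filament proteins of epithelia, followed. Of 13 measured, 11 fell and 1 rose, with a median of -1.60. With replicate 1 alone 1 of them fell past the threshold. Krt90 had 6.46, 6.04 and 6.33 on day 7 and 12.95, 11.78 and 10.53 on days 1 to 3 (difference -5.47, SE 0.54, adjusted p = 0.00112, limma). Krt16, a keratin of stressed and hyperproliferative epidermis, had 8.20, 8.25 and 7.89 on day 7 and 13.31, 11.41 and 10.35 on days 1 to 3 (difference -3.58, SE 0.66). The early arrays of both keratins declined from day to day, and each stayed above all day 7 arrays. The basal Krt5 fell by 1.93 and the luminal pair Krt8 and Krt18 by 1.60 and 1.22. Krt8 nevertheless remained bright, at 12.46, 12.19 and 12.30 on day 7 and 14.10, 13.91 and 13.74 on days 1 to 3. Krt10, the type I keratin of suprabasal epidermis, went against the list. It had 10.19, 10.29 and 10.39 on day 7 and 8.95, 8.91 and 8.65 on days 1 to 3 (difference 1.45, SE 0.15, adjusted p = 0.00122, limma). Its groups did not overlap, and the early arrays were the lower ones.

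Kallikreins, secreted serine proteases, fell in 6 of 8 measured list members, the count including their inhibitor Spink5, which fell by 1.81. With replicate 1 alone 1 of them fell past the threshold, and with the set as a block over the 6 arrays 3 did. Klk7, a desquamation protease, had 6.05, 6.93 and 6.25 on day 7 and 13.26, 11.57 and 9.92 on days 1 to 3 (difference -5.17, SE 0.75, adjusted p = 0.00316, limma). Klk6 had 8.25, 8.21 and 8.28 on day 7 and 14.36, 13.62 and 11.56 on days 1 to 3 (difference -4.93, SE 0.63, adjusted p = 0.00218, limma). Day 7 was uniform for Klk6, and day 3 again stood nearest to it. Klk14 fell by 4.24, Klk10 by 2.77 and Klk8 by 1.89. Klk10 kept a level above 10 on every day 7 array, at 10.20, 10.31 and 10.55. Clade B serpins and stefins, intracellular protease inhibitors, moved both ways. Serpinb11 had 5.38, 4.63 and 4.78 on day 7, where no array detected it, and 10.44, 8.73 and 8.03 on days 1 to 3, at least 11.6-fold lower on day 7 (adjusted p = 0.00273, limma). Serpinb2, the plasminogen activator inhibitor PAI-2, fell by 3.58. Stfa1, a stefin with near-identical neighbours that the probes may not tell apart, had 10.01, 10.40 and 10.18 on day 7 and 7.96, 6.30 and 6.87 on days 1 to 3 (difference 3.15, SE 0.39).

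Also among the largest falls were a chemokine and a surface protein. Psca, a GPI-anchored surface antigen of prostate and other epithelia, had 6.07, 5.28 and 5.63 on day 7 and 13.30, 11.75 and 10.11 on days 1 to 3 (difference -6.06, SE 0.71, adjusted p = 0.00173, limma). Ppbp, the platelet chemokine CXCL7, had 8.18, 7.32 and 8.39 on day 7 and 13.00, 12.92 and 12.26 on days 1 to 3 (difference -4.77, SE 0.32, adjusted p = 0.000607, limma). Unlike Psca, Ppbp hardly differed between the early days. Krt79 completed the 12 largest falls, at -3.78. Without day 1 the 12 spanned -5.40 to -2.95 and without day 3 -7.75 to -4.51, and all 12 passed in each case. In replicate 1 alone 4 of the 12 passed, and with the array set as a block over the 6 arrays 7 did.

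**Figure D2:**
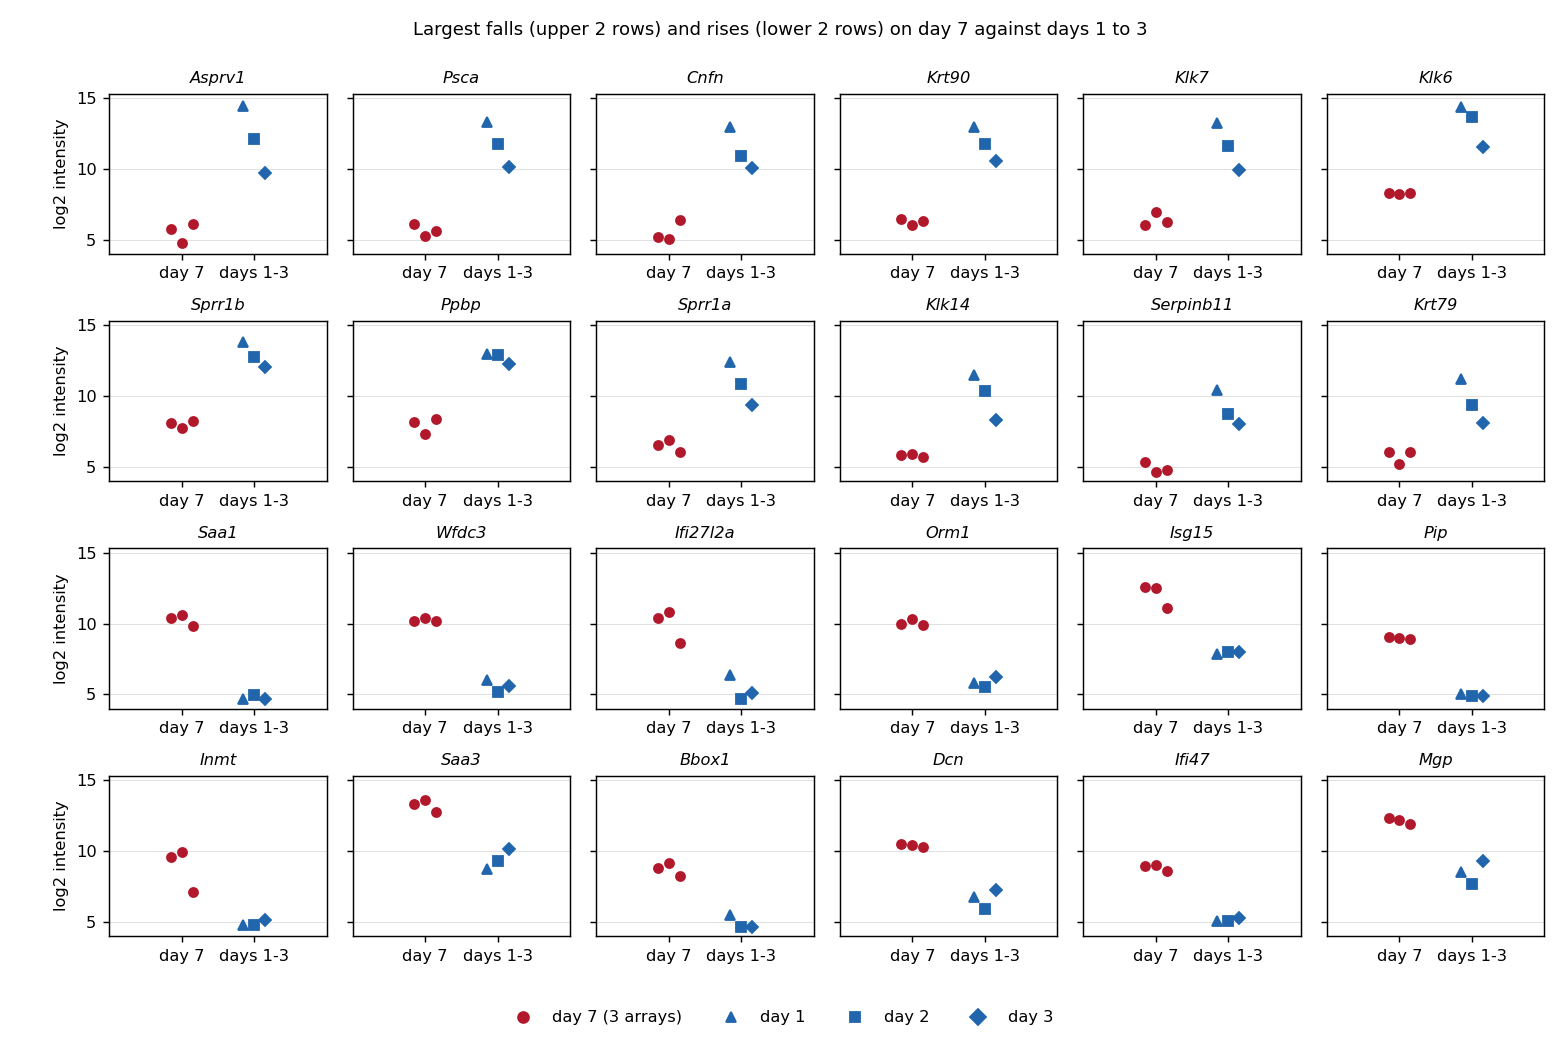
Log2 intensity on each array for the 12 genes with the largest falls (upper panels) and the 12 with the largest rises (lower panels). Red circles are the 3 day 7 arrays, and blue marks are days 1, 2 and 3. Most falling genes step down from day 1 to day 3, as Asprv1 does from 14.42 to 9.72, whereas Isg15 stays at 7.82 to 7.98 over those days.

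The decline was under way within the early days. Among the 21 squamous genes that fell, 18 (85.7%) had day 1 above day 2 above day 3. So did 9 of 11 keratins and 5 of 6 members of the kallikrein list, which includes Spink5. The same order held in 415 of all 2023 genes that fell (20.5%) and in 1945 of all 10365 genes (18.8%). Relative to the mean of days 1 to 3, the median of the cornification list was 0.97, -0.19 and -0.85 on days 1, 2 and 3 and -1.47, -1.91 and -1.97 on days 4, 5 and 6. It reached -2.61, -2.50 and -2.28 in day 7 replicates 1 to 3. The hypoxic arrays lay at -2.40, -2.31 and -2.15 on the same scale, close to the day 7 values. Single genes differed in this: Lor was at a mean of 5.13 in hypoxic cells, below day 7, and Cdsn at 9.49, above it.

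**Figure D3:**
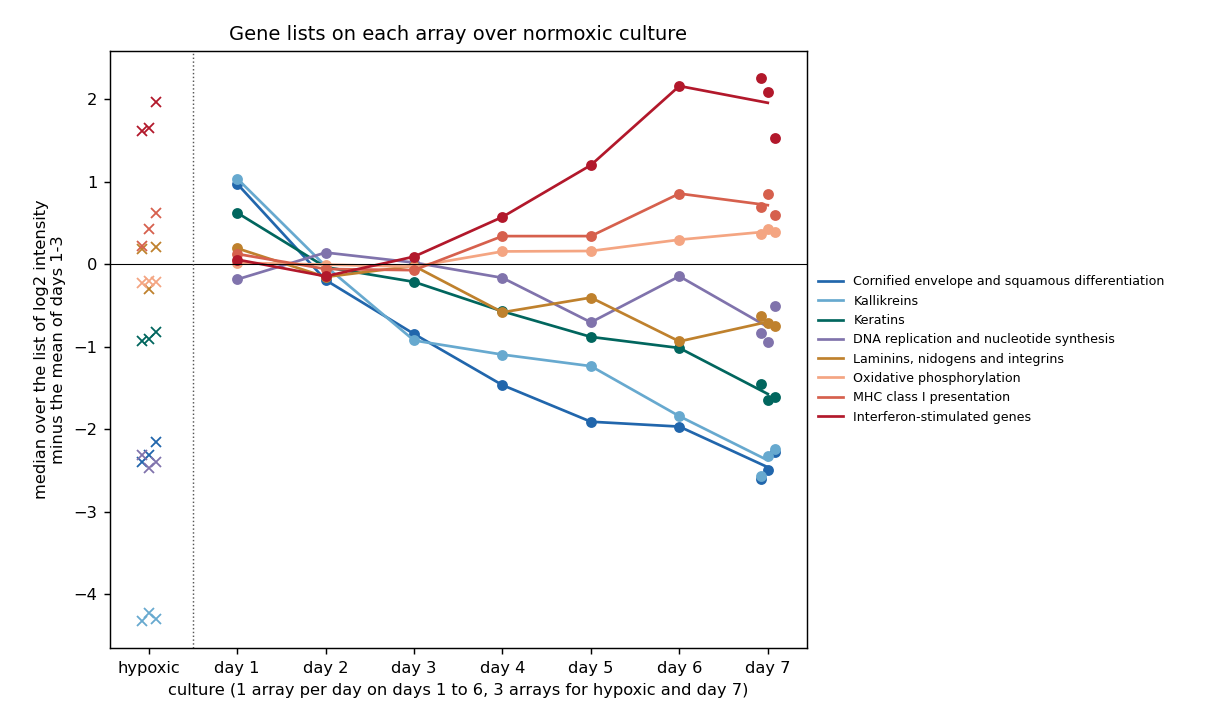
Median over each list of log2 intensity minus the mean of days 1 to 3 (vertical) for each culture day (horizontal), with 1 array a day on days 1 to 6 and 3 arrays on day 7. Crosses are the 3 hypoxic arrays. Lines join the days and, at day 7, the mean of 3 arrays. The cornification list declines from 0.97 on day 1 to about -2.5 on day 7. The interferon list stands at 0.57 on day 4 and 2.16 on day 6. Days 1 to 3 and days 4 to 6 lie in different inferred array sets.

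Junction and basement membrane lists held genes that fell and none that rose, in unequal shares. Of 8 measured desmosome and plakin genes 6 fell and none rose, and 1 of them fell past the threshold in replicate 1 alone. Pkp3, plakophilin 3, a desmosomal plaque protein, had 8.23, 8.22 and 8.51 on day 7 and 10.14, 9.66 and 9.75 on days 1 to 3 (difference -1.53, SE 0.18, adjusted p = 0.00173, limma), and Pkp1 fell by 1.36. Of 19 tight junction and epithelial surface genes 6 fell, none rose and 13 did not pass, with a median of -0.19. Cldn1, a claudin that seals tight junctions, had 7.83, 8.18 and 8.53 on day 7 and 9.56, 9.57 and 10.06 on days 1 to 3, and the epithelial splicing factor Esrp2 fell by 1.06. Epcam, an adhesion molecule of simple epithelia, was at 6.66, 6.92 and 6.54 on day 7 and 6.97, 6.23 and 6.42 on days 1 to 3, with overlapping groups (difference 0.16, SE 0.22, adjusted p = 0.599, limma). In the list of laminins, nidogens and integrins 10 of 17 fell, none rose and 7 did not pass, with a median of -0.68. None of them passed in replicate 1 alone, and 2 did with the set as a block over the 6 arrays. Itgb6, a subunit of the epithelial receptor that activates latent TGF-beta, had 8.60, 8.43 and 8.33 on day 7 and 11.23, 10.19 and 10.36 on days 1 to 3 (difference -2.14, SE 0.28, adjusted p = 0.00222, limma). Col17a1, the hemidesmosomal collagen, had 10.76, 10.55 and 10.35 on day 7 and 13.05, 12.60 and 11.95 on days 1 to 3 (difference -1.98, SE 0.28). All day 7 arrays lay below all early ones in both genes. Itga2, a collagen receptor subunit, fell by 2.19, Lamb3, a chain of laminin-332, by 1.65, Itga3 by 1.49 and Itgb4 by 1.27.

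Cell type markers changed within the epithelial lists. Of 17 measured basal mammary markers 9 fell and 1 rose, with a median of -0.73. The riser was Dkk3, a secreted modulator of Wnt signalling, with 10.60, 10.49 and 10.01 on day 7 and 8.31, 8.66 and 9.30 on days 1 to 3. Of 13 luminal markers 4 fell and none rose, against 19.5% and 17.0% of all genes tested. The median of that list, -0.20, became 0.01 under scaling on the probes that every array detected. Replicate 1 alone passed none of the basal markers and 1 luminal marker. Among 17 measured tumour-initiating and stem cell markers 6 fell and 2 rose, against 19.5% and 17.0% of all genes tested. The larger rise was in Kit. Neither rise reached 2-fold, and 4 of the falls did. With the set as a block over the 6 arrays 1 fell and none rose, and none passed in replicate 1 alone. Aldh1a3, a retinaldehyde dehydrogenase behind the aldehyde dehydrogenase assay for stem-like cells, had 8.80, 8.55 and 9.54 on day 7 and 12.71, 11.55 and 10.73 on days 1 to 3 (difference -2.70, SE 0.50, adjusted p = 0.00654, limma). Cd44, the hyaluronan receptor, had 11.20, 11.03 and 11.15 on day 7 and 12.19, 11.98 and 12.43 on days 1 to 3 (difference -1.07, SE 0.16, adjusted p = 0.00362, limma). Cd44 was thus tight within each group and lower on all day 7 arrays, and 5 of its 6 other probes on the array passed in the same direction. With the set as a block over the 6 arrays neither call held (adjusted p = 0.0656 for Aldh1a3 and 0.0617 for Cd44), nor did either in replicate 1 alone (0.0806 and 0.0915).

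Most markers of macrophages, lymphocytes and endothelial cells were not measured, whereas 7 of 13 fibroblast markers were. Probes existed for 16 of 17 macrophage markers and for all 13 endothelial and all 13 fibroblast markers. Markers that had a probe but were not measured were detected on fewer than 3 of the 12 arrays. Of 17 macrophage markers 3 were measured, and neither Ptprc nor Csf1r, which define such cells, was among them. The summed linear intensity of the 3 was 1631 to 2178 on day 7 and 732 to 1003 on days 1 to 3, nearly all from Cd14, a co-receptor for bacterial lipopolysaccharide, whose level rose by 1.28. Of 15 lymphocyte markers 10 had a probe and 1 was measured, with 29.3 to 49.8 on day 7 and 26.8 to 62.2 on days 1 to 3. Of 13 endothelial markers 3 were measured, with 673 to 699 on day 7 and 519 to 693 on days 1 to 3. Pecam1 and Cdh5 were not among them. Egfl7 rose, by at least 2-fold, and no other member passed. Of 13 fibroblast markers 7 were measured, with a sum of 11660 to 14090 on day 7 and 8969 to 13170 on days 1 to 3, while Lum, Thy1, Fap and Postn were not. Within that list Dcn, decorin, a small proteoglycan of connective tissue, and the growth factor receptor Pdgfra rose. Dcn had 10.47, 10.44 and 10.28 on day 7 and 6.77, 5.90 and 7.24 on days 1 to 3 (difference 3.76, SE 0.32, adjusted p = 0.000779, limma), and Pdgfra rose by 0.98. In these bulk cultures fewer cells of a type and less RNA per cell cannot be told apart, and the part of other cells in the results was not tested.

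Interferon-stimulated genes were the list with the highest median. Of 22 measured genes 16 rose and none fell, with a median of 1.84. That median was 1.13 without background correction and 1.46 with an offset of 50. Only 14 of the 22 were detected on all arrays of days 1 to 3. In replicate 1 alone 14 rose past the threshold, and with the set as a block over the 6 arrays 13 did. Isg15, the ubiquitin-like modifier whose promoter is shown above, had 12.59, 12.52 and 11.09 on day 7 and 7.82, 7.98 and 7.98 on days 1 to 3 (difference 4.14, SE 0.38, adjusted p = 0.00102, limma). Ifi27l2a, an interferon-induced mitochondrial protein outside the list, had 10.41, 10.81 and 8.60 on day 7 and 6.38, 4.65 and 5.13 on days 1 to 3 (difference 4.56, SE 0.65, adjusted p = 0.00291, limma). Day 7 replicate 3 was the lowest of the day 7 arrays for both genes, and still above all early arrays. Ifi47, an interferon-inducible GTPase, had 8.97, 8.99 and 8.59 on day 7 and 5.07, 5.06 and 5.28 on days 1 to 3, where no array detected it, and was at least 11.1-fold higher on day 7 (adjusted p = 0.00019, limma). Among the guanylate-binding and immunity-related GTPases, Gbp3 had 9.98, 10.00 and 9.13 on day 7 and 6.50, 6.10 and 6.16 on days 1 to 3, a rise of 3.45, and Igtp rose by 3.01 and Gbp2 by 1.90. Usp18, which removes Isg15 from proteins, rose by 3.16, Ifit3 by 3.15 (its other probe by 1.84), Oasl2 by 2.50 and the membrane tether Bst2 by 2.28. Among transcription factors of the pathway, Irf7 had 7.37, 7.27 and 6.52 on day 7 and 4.81, 4.56 and 4.80 on days 1 to 3, where it was not detected, and was at least 3.18-fold higher (adjusted p = 0.00123, limma). Irf9, a DNA-binding factor of interferon signalling, rose by 2.20.

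Antigen presentation through MHC class I shared the direction in part. Of 15 measured genes 9 rose and none fell, with a median of 0.71, and 3 rose past the threshold in replicate 1 alone. Psmb8, a subunit that converts the proteasome into the immunoproteasome, had 10.82, 10.70 and 10.05 on day 7 and 8.42, 7.91 and 7.87 on days 1 to 3 (difference 2.46, SE 0.25, adjusted p = 0.00122, limma). Its partner Psmb9 rose by 2.20, the nonclassical class I gene H2-M3 by 1.88 and the proteasome activator subunit Psme1 by 1.16. The classical heavy chain H2-K1 rose by 0.63, a call lost under 5 alternatives: without day 7 replicate 2 (adjusted p = 0.0637), under a common median (0.0537), with the array set as a block over 12 arrays (0.122) or over 6 arrays (0.151), and in replicate 1 alone (0.197). B2m, the shared light chain, was at 0.18 without passing, and at 0.74 under scaling on the probes that every array detected (adjusted p = 0.00882, limma). The interferon list was first higher on day 4, where the inferred array set also changes. Days 1 to 3 and days 4 to 6 lie in different sets, so the start of the rise cannot be placed. The interferon list stood at 0.06, -0.15 and 0.09 on days 1, 2 and 3, relative to their mean, and at 0.57, 1.20 and 2.16 on days 4, 5 and 6. It was 2.26, 2.09 and 1.53 in the day 7 replicates, and 1.62, 1.66 and 1.97 in the hypoxic arrays, so its early values were the lowest of the series.

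Acute phase and inflammatory genes gave the other large rises. Saa1, serum amyloid A1, had 10.41, 10.58 and 9.81 on day 7 and 4.66, 4.99 and 4.65 on days 1 to 3, where no array detected it, and was at least 29.5-fold higher (adjusted p = 0.000171, limma). Saa3, its epithelial and macrophage relative, had 13.33, 13.62 and 12.77 on day 7 and 8.70, 9.28 and 10.12 on days 1 to 3 (difference 3.87, SE 0.38, adjusted p = 0.0011, limma). Saa3 climbed from day 1 to day 3, while Saa1 stayed below detection. Orm1, orosomucoid, another acute phase protein, had 9.96, 10.29 and 9.91 on day 7 and 5.80, 5.54 and 6.22 on days 1 to 3 (difference 4.20, SE 0.21, adjusted p = 0.000265, limma), and haptoglobin (Hp) rose by 2.96. Il6, the cytokine that induces such proteins in liver, had 9.55, 10.05 and 9.89 on day 7 and 6.23, 6.03 and 7.11 on days 1 to 3 (difference 3.37, SE 0.30, adjusted p = 0.00082, limma). All day 7 arrays exceeded all early arrays in each of these genes. Ccl9, a chemokine for myeloid cells, had 10.73, 11.02 and 10.44 on day 7 and 5.88, 7.56 and 8.30 on days 1 to 3, a rise of 3.48. S100a8, a calgranulin subunit, rose by 1.90, Ccl5 by 1.75, Ccl7 by 1.18 and Ccl2 by 0.99.

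Not all cytokines rose. The list of chemokines, acute phase and NF-kB targets had 14 members that rose and 5 that fell among 31, with a median of 0.24, and replicate 1 alone gave 5 and 1. Il24, an IL-10 family cytokine, had 9.37, 9.36 and 10.07 on day 7 and 12.42, 12.38 and 12.11 on days 1 to 3 (difference -2.70, SE 0.23, adjusted p = 0.000779, limma). Il1a, an alarmin stored in keratinocytes, had 9.73, 9.73 and 9.58 on day 7 and 11.61, 11.04 and 11.53 on days 1 to 3 (difference -1.71, SE 0.19, adjusted p = 0.00136, limma). Both were lower on every day 7 array. Relative to the mean of days 1 to 3, the list's median was 0.62, 0.11 and 0.04 in day 7 replicates 1 to 3. It was 0.07, -0.24 and 0.22 on days 1, 2 and 3, so replicates 2 and 3 lay within the early range.

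The remaining large rises belonged to no list. Wfdc3, a whey acidic protein domain gene, had 10.16, 10.38 and 10.19 on day 7 and 6.03, 5.17 and 5.57 on days 1 to 3 (difference 4.65, SE 0.23, adjusted p = 0.000265, limma). Its mean in hypoxic cells was 11.60, so the early arrays were low and day 7 lay nearer to the hypoxic level. Pip, prolactin-induced protein, a secretory product of mammary and other glands, had 9.08, 9.01 and 8.92 on day 7 and 5.00, 4.86 and 4.91 on days 1 to 3, where no array detected it, at least 12.3-fold higher (adjusted p = 6.1e-05, limma). Mgp, matrix Gla protein, had 12.36, 12.15 and 11.90 on day 7 and 8.54, 7.65 and 9.30 on days 1 to 3 (difference 3.64, SE 0.39). Bbox1, the last enzyme of carnitine synthesis, rose by 3.79. Inmt, an indolamine methyltransferase, had 9.57, 9.90 and 7.08 on day 7 and was undetected on days 1 to 3, at 4.78, 4.76 and 5.10. It was at least 11.03-fold higher (adjusted p = 0.00512, limma), with replicate 3 far below the other day 7 arrays, and its other probe rose by 2.59. The 12 largest rises had adjusted p up to 0.0434 over the alternatives run, the highest being that in replicate 1 alone.

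Most measured replication genes fell. Of 32 measured genes of DNA replication and nucleotide synthesis 19 fell and 1 rose, with a median of -0.77, and 2 of them fell past the threshold in replicate 1 alone. Mcm2, a subunit of the replicative helicase, had 9.04, 8.39 and 9.04 on day 7 and 10.24, 10.38 and 10.36 on days 1 to 3 (difference -1.51, SE 0.21, adjusted p = 0.00266, limma). The fellow subunit Mcm5 had 10.71, 10.53 and 11.03 on day 7 and 12.01, 12.22 and 12.13 on days 1 to 3 (difference -1.37, SE 0.17). The early arrays were nearly equal for both and above all day 7 arrays. Pole, the catalytic subunit of DNA polymerase epsilon, fell by 1.48, Mcm3 by 1.42, the licensing factor Cdc6 by 1.06 and the transcription factor E2f1 by 0.98. Gins2, of the GINS complex, was the member that rose, by 0.72, a call lost under a common median (adjusted p = 0.0769), with the set as a block over the 6 arrays and in replicate 1 alone (up to 0.168). Hypoxic cells were lower still, with Mcm5 at 8.03, 7.77 and 8.07.

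Mitotic genes moved less. Of 22 measured 9 fell and 1 rose, with a median of -0.58. The count that fell was 5 without day 7 replicate 2 or without day 2, 14 when arrays were scaled to a common median, and 0 in replicate 1 alone. Prc1, a spindle midzone protein, had 11.61, 11.39 and 11.78 on day 7 and 12.76, 12.80 and 13.01 on days 1 to 3 (difference -1.26, SE 0.16), and the kinase Plk1 fell by 1.18. The probe that represents Kif23, a cytokinesis kinesin, rose by 0.98, while its other probes fell by 1.27 and 1.24, so its direction is uncertain. Among G1 regulators, cyclin D1 (Ccnd1) had 12.82, 12.31 and 12.90 on day 7 and 14.45, 14.30 and 14.10 on days 1 to 3 (difference -1.61, SE 0.20, adjusted p = 0.00199, limma). The Cdk inhibitors Cdkn2b and Cdkn2a changed in the other direction. Cdkn2b had 11.51, 11.34 and 11.41 on day 7 and 9.67, 10.03 and 10.57 on days 1 to 3, a rise of 1.33. Cdkn2a had 11.15, 11.22 and 11.16 on day 7 and 9.87, 10.13 and 9.94 on days 1 to 3, a rise of 1.19. Of 19 measured G1 genes 3 rose and 3 fell, both below the shares over all genes tested, 17.0% and 19.5%. Under a common median 10 fell.

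Ribosome production and Myc-regulated genes followed replication in direction. Of 19 measured 9 fell and 1 rose, with a median of -0.53, and 14 fell under a common median. In replicate 1 alone 2 fell past the threshold. Cad, the enzyme that starts pyrimidine synthesis, had 6.35, 6.03 and 5.72 on day 7 and 7.50, 7.93 and 7.45 on days 1 to 3 (difference -1.60, SE 0.22, adjusted p = 0.00253, limma). Nucleolin (Ncl) fell by 1.43, the RNA polymerase I subunit Polr1b by 1.36 and ornithine decarboxylase (Odc1) by 1.31. Mxd4, which competes with Myc for its partner Max, had 10.64, 10.37 and 10.30 on day 7 and 9.50, 7.98 and 8.46 on days 1 to 3, and rose by 1.79.

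**Figure D4:**
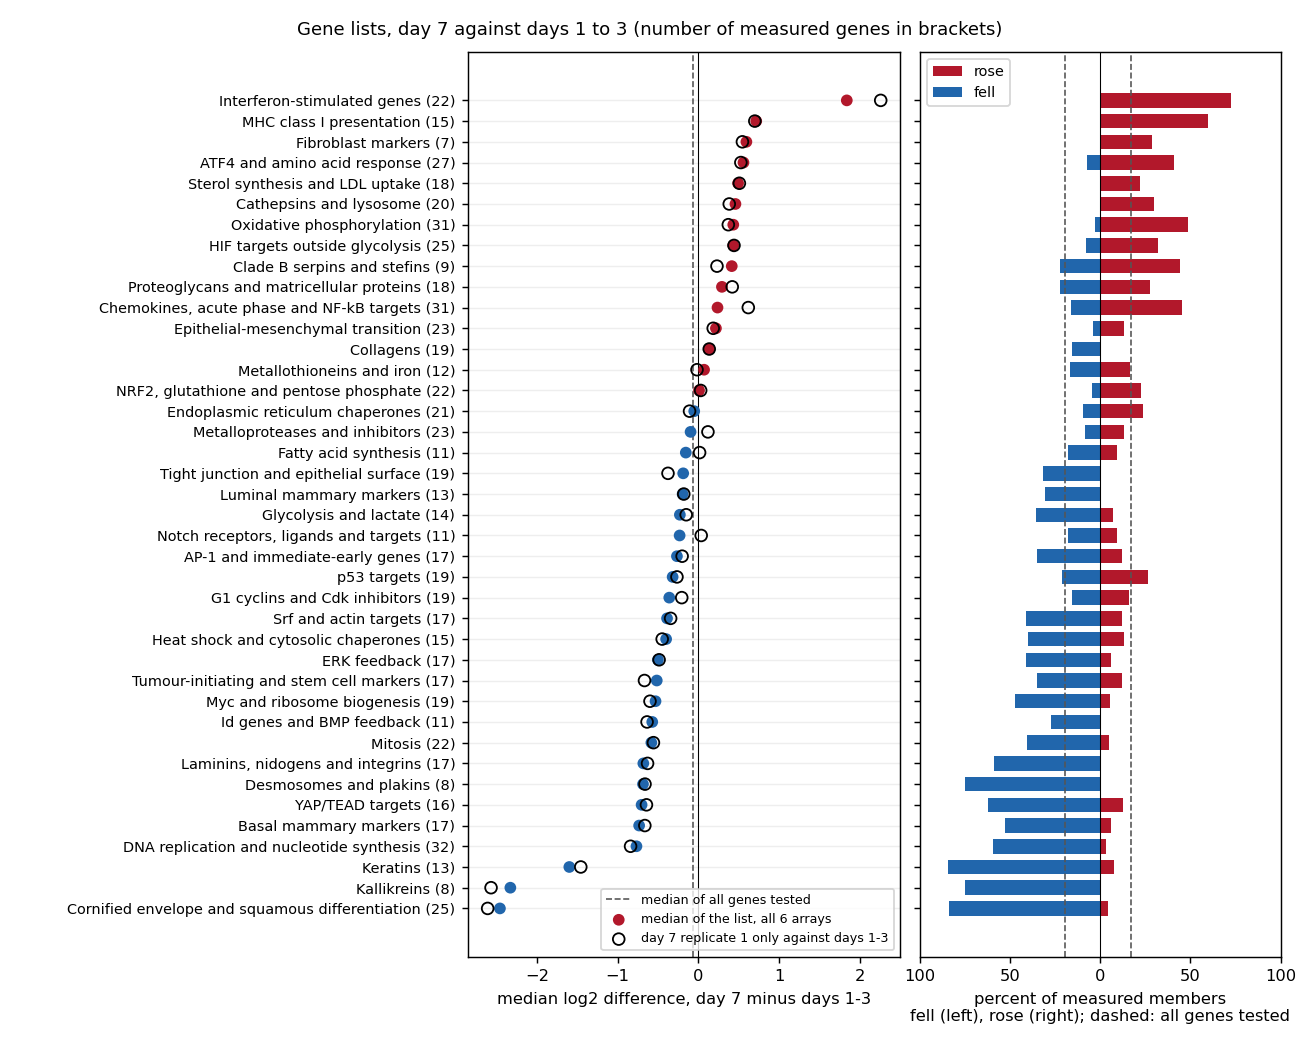
Left, median log2 difference (day 7 minus days 1 to 3) of each gene list with at least 5 measured genes, from all 6 arrays (filled) and from day 7 replicate 1 only (open). Right, percent of measured members that rose (red) or fell (blue), with dashed lines at the shares over all genes tested, 17.0% and 19.5%. Interferon-stimulated genes stand at 1.84 and cornification at -2.46.

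Growth factor and mechanical signalling lists leaned lower. Of 16 measured YAP/TEAD targets 10 fell and 2 rose, with a median of -0.70, and 1 fell past the threshold in replicate 1 alone. Amotl2, a junctional binder of YAP, had 6.41, 6.75 and 7.12 on day 7 and 8.03, 8.15 and 8.26 on days 1 to 3 (difference -1.38, SE 0.20, adjusted p = 0.00324, limma). The DNA-binding partner Tead1 fell by 1.16. Of 17 genes of ERK feedback 7 fell and 1 rose, though 4 fell without day 7 replicate 2 and none passed in replicate 1 alone. Dusp5, a nuclear ERK phosphatase, had 7.49, 7.67 and 7.46 on day 7 and 10.51, 9.49 and 9.41 on days 1 to 3 (difference -2.26, SE 0.30, adjusted p = 0.00229, limma). The EGF receptor ligand Hbegf fell by 1.54 and Egfr itself by 0.78. Day 7 was below every early array in each of Amotl2, Dusp5 and Hbegf. Of 17 Srf and actin targets 7 fell and 2 rose, among them Actn1, alpha-actinin, which fell by 1.12, and zyxin (Zyx), which fell by 1.06. Scaling on the probes that every array detected left 3 that fell, and replicate 1 alone left 0. Follistatin (Fst), which sequesters activin, had 11.08, 10.91 and 11.21 on day 7 and 13.06, 12.98 and 12.44 on days 1 to 3, a fall of 1.76. Nrarp, a feedback inhibitor of Notch, fell by 1.77. Of 11 measured Notch genes 2 fell, near the 19.5% of all genes tested, and 1, Hey1, rose.

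Metabolic and stress lists moved upward in part, with counts that depended on single arrays. Of 31 measured genes of oxidative phosphorylation 15 rose and 1 fell, with a median of 0.43. The count that rose was 8 without day 7 replicate 2, 24 under scaling on the probes that every array detected, and 2 in replicate 1 alone. Ndufb9, a complex I subunit, had 11.96, 12.35 and 12.15 on day 7 and 10.12, 10.44 and 10.20 on days 1 to 3 (difference 1.90, SE 0.17, adjusted p = 0.00082, limma). Cox7b, of complex IV, rose by 1.86, and Uqcrc1, of complex III, fell by 0.64, a call lost under the same scaling (adjusted p = 0.103), with the set as a block over the 6 arrays and in replicate 1 alone (up to 0.159). Day 7 was above the early days in both Ndufb9 and Cox7b.

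Of 27 measured genes of the ATF4 and amino acid response 11 rose and 2 fell, against 17.0% and 19.5% of all genes tested. The count that rose was 4 without day 7 replicate 1, 3 without replicate 2, 5 without day 1, 4 without day 2, and 3 in replicate 1 alone. Ddit3, the stress transcription factor CHOP, had 10.97, 11.02 and 9.92 on day 7 and 7.64, 8.40 and 9.0 on days 1 to 3 (difference 2.29, SE 0.41, adjusted p = 0.0062, limma). Its mean in hypoxic cells was 12.95, so day 7 lay between the early and the hypoxic level, and the early arrays climbed by day. Nupr1, a stress-induced nuclear protein, had 12.89, 12.90 and 12.28 on day 7 and 11.09, 10.80 and 11.26 on days 1 to 3, a rise of 1.64. Of 25 HIF targets outside glycolysis 8 rose and 2 fell, with 5 that rose without day 7 replicate 2 or without day 2, 3 under a common median and 0 in replicate 1 alone. Ddit4, an inhibitor of mTORC1, had 12.10, 12.09 and 11.44 on day 7 and 9.94, 9.70 and 10.66 on days 1 to 3 (difference 1.78, SE 0.30), and the mitophagy receptor Bnip3l rose by 1.38. All 6 arrays were at 21% oxygen.

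Of 20 genes of cathepsins and lysosomes 6 rose, against 17.0% of all genes tested, and none fell. The count that rose was 2 without day 7 replicate 1, without replicate 2 or without day 2. The same list gave 2 under a common median, 10 under scaling on the probes that every array detected and 0 in replicate 1 alone. Ctsf, cathepsin F, had 7.06, 7.30 and 7.46 on day 7 and 4.85, 4.69 and 5.52 on days 1 to 3 (difference 2.25, SE 0.24, adjusted p = 0.00129, limma), and was detected on 1 of the early arrays. Hexa, a hexosaminidase subunit, rose by 1.27. Of 15 heat shock and cytosolic chaperone genes 6 fell and 2 rose, and 1 fell past the threshold in replicate 1 alone. Hsph1, an HSP110 chaperone, had 10.80, 10.62 and 10.80 on day 7 and 11.60, 11.90 and 12.34 on days 1 to 3, and fell by 1.20. Mgst1, a microsomal glutathione transferase, rose by 2.44 on the probe used and had 0.79 on its other probe, which did not pass. The death receptor Fas, a p53 target, had 9.89, 10.02 and 9.80 on day 7 and 8.20, 8.18 and 8.63 on days 1 to 3, a rise of 1.57, while the kinase Plk2 of the same list fell by 1.51.

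Matrix genes moved both ways. Of 18 measured proteoglycans and matricellular proteins 5 rose and 4 fell, near the 17.0% and 19.5% of all genes tested. Of 19 measured collagens none rose, 3 fell and 16 did not pass. Besides Dcn and Mgp, Cthrc1, a secreted collagen triple helix protein, had 10.66, 10.84 and 10.32 on day 7 and 7.45, 8.61 and 7.91 on days 1 to 3 (difference 2.62, SE 0.30, adjusted p = 0.0016, limma). Thbs2, thrombospondin 2, had 9.0, 9.04 and 8.84 on day 7 and 7.08, 7.13 and 7.52 on days 1 to 3, and rose by 1.72. Its relative Thbs1 was detected on no day 7 array, at 4.80, 5.17 and 5.02, and had 7.63, 7.46 and 7.16 on days 1 to 3, at least 3.68-fold lower on day 7 (adjusted p = 0.000612, limma). The pair of thrombospondins thus changed in opposite directions without overlap. Fstl1, a follistatin-like glycoprotein, rose by 1.71 and S100a4, a calcium-binding protein of motile cells, by 1.66. These were listed under epithelial-mesenchymal transition, where 3 of 23 rose and 1 fell, below the 17.0% and 19.5% of all genes tested. Under scaling on the probes that every array detected 5 rose. The list's median of 0.22 became -0.06 under a common median.

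Mmp14, the membrane-anchored metalloprotease that the study's title names, had 11.62, 11.42 and 11.69 on day 7 and 12.21, 11.79 and 11.99 on days 1 to 3. Every day 7 array was below every early array, but the difference of -0.42 (SE 0.17) did not pass the threshold (adjusted p = 0.0835, limma). It passed under 5 alternatives, namely no background correction (adjusted p = 0.0384), a mean for each of 8 groups over 12 arrays (0.0293), 4 periods (0.0448), a trended and robust variance (0.0203) and a slope over the 9 normoxic arrays (0.0385). Hypoxic cells had 13.12, 13.00 and 13.05, above all normoxic arrays. Of 23 measured metalloproteases and inhibitors 3 rose and 2 fell, with 5 that fell under a common median, and 1 rose past the threshold in replicate 1 alone. Mmp12, macrophage elastase, had 8.96, 9.19 and 8.58 on day 7 and 5.78, 4.69 and 5.84 on days 1 to 3 (difference 3.48, SE 0.33, adjusted p = 0.00104, limma). Timp3, a matrix-bound inhibitor, fell by 1.22, and 1 of its other 2 probes was at 0.44 without passing. The counts of that list that rose and fell were below the shares over all genes tested, 17.0% and 19.5%. Its groups did not overlap in 5 members with day 7 above and 5 with day 7 below. Over all genes tested those shares were 22.7% and 28.2%.

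The mean of days 4 to 6 lay between the group means in 1620 of the 1760 genes that rose (92%) and in 1917 of the 2023 that fell (94.8%). Genes called for a wide gap between those means leave more room for another mean between them, so these shares are a description. The days 4 to 6 arrays did not enter the comparison, but all 3 belong to the same inferred set as day 7 replicates 2 and 3.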

How the data were processed

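Total RNA of the cells was amplified to biotin-labelled cRNA and hybridised, per the labels' protocols. The deposited table gave 45281 probes on 12 arrays a log2 signal each, which to judge by the values was not corrected for background or normalized, and a detection p-value. Those deposited p-value columns carried no sample names, and each was matched to the 1 signal column it ordered exactly. The processed table was not used, other than to compare names. Signals were processed with neqc of limma 3.58.1 in R 4.3.3 (background from detection p-values, offset 16, quantiles over 12 arrays). Genes detected at p below 0.05 on at least 3 of 12 arrays were tested, each by its brightest probe: 10365 genes from 16023 of the 18561 probes kept. For 3872 genes with several probes, those of 26 were called in opposite directions. Gene names are those of GEO's platform annotation. Day 7 and days 1 to 3 were compared with lmFit and eBayes on 6 arrays (4 residual degrees of freedom), 2-sided, with Benjamini-Hochberg adjustment, and checked on simulated data. Of 974 entries on 43 gene lists, 727 were measured. Named were the 12 largest rises and falls without overlap, the largest called change of each list each way, with exceptions, key members of the lists, and Mmp14. The exceptions that rose and are not described were Aldoc, Atf3, Etv1, Higd1a, Hspe1, Lcn2, Myl9 and Scd1. Those that fell were Acly, Axl, Car12, Eprs, Hk1, Osgin1 and Tfrc. Chosen after their values were seen were Bnip3l, Ccl5, Ccl9, Cdsn, Cox7b, Ddit4, Esrp2, Evpl, Gbp3, Grhl3, H2-M3, Hexa, Hp, Igtp, Irf9, Mcm3, Nupr1, Oasl2, Pdgfra, Pole, Ppl, Psme1, Spink5, Tead1, Zfp750 and Zyx. The members and lists were chosen with earlier results of these data known. No set test was run. Scaling, background, filters, probes, models, array sets and left-out arrays were varied.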

Additional observations from a re-analysis of the deposited data

How the results depend on the processing

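Called genes numbered 3783, and between 3026 and 4646 under 14 other settings of scaling, background correction, filtering, model or averaging of probes, but 6121 of 18561 with every probe on its own, 751 with the array set as a block over 6 arrays and 364 in day 7 replicate 1 alone. The last 2 rest on fewer degrees of freedom. Of the 3783, 724 and 347 were among those calls, and 2856 among the 3026 calls of the set block over 12 arrays. Leaving out 1 array gave 2315 to 3427 calls, with the lowest count without day 7 replicate 2. Calls of at least 2-fold numbered 1474, and 754 without background correction, 2510 with every probe, 734 with the set block over 6 arrays, 364 in replicate 1 alone and 1221 to 1588 with an array left out. The median difference was -0.297 under a common median. Of genes on the lists 318 were called, and 89 with the set block over 6 arrays, 55 in replicate 1 alone and 212 to 299 with an array left out. Of 133 named genes that passed, 53 passed under every alternative. The mean over its probes turned Kif23 to -0.51, and the uncalled Epcam turned to -0.172 under a common median and -0.0629 with the set block over 12 arrays. No paired analysis was possible because days 1, 2 and 3 each carry only the number 1, so the groups share fewer than 2 numbers. Low signals limit folds: the 12 largest rises spanned 2.18 to 3.72 without background correction and 3.64 to 5.50 with it. The 12 largest falls spanned -5.09 to -2.54 without it and -6.57 to -3.78 with it.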

Other observations

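Sterol synthesis and chaperones of the endoplasmic reticulum held single genes with clear changes and lists with few calls. In both lists the share that rose was near that over all genes tested, 17.0%. Over all genes 19.5% fell. Idi1, isopentenyl diphosphate isomerase of the mevalonate pathway, had 8.95, 9.92 and 9.62 on day 7 and 7.84, 8.0 and 8.36 on days 1 to 3 (difference 1.43, SE 0.27, adjusted p = 0.00754, limma). All day 7 arrays lay above the early ones. Of 18 measured genes of sterol synthesis 4 rose and none fell, with 1 to 9 that rose when an array was left out and 0 in replicate 1 alone. Dnajb9, a chaperone cofactor of the endoplasmic reticulum, had 10.76, 11.03 and 10.57 on day 7 and 9.72, 9.41 and 9.09 on days 1 to 3, a rise of 1.38 (SE 0.21, adjusted p = 0.00362, limma). In replicate 1 alone neither call held, with adjusted p = 0.126 for Idi1 and 0.0724 for Dnajb9 (limma). Hyou1, another chaperone there, was detected on no day 7 array, at 5.08, 5.36 and 5.40, and had 6.56, 6.59 and 6.42 on days 1 to 3. It was at least 1.98-fold lower on day 7 (adjusted p = 0.00185, limma), so the pair moved in opposite directions. Of 21 genes on that list 5 rose and 2 fell, with 3 that rose without day 7 replicate 2 and 6 that fell under a common median. Its median, -0.05, became 0.08 under scaling on the probes that every array detected.

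Among immediate-early genes, Ier3, an inducible regulator of cell survival, had 12.95, 12.57 and 12.75 on day 7 and 14.51, 14.08 and 14.46 on days 1 to 3 (difference -1.59, SE 0.18, adjusted p = 0.00153, limma). It was lower on all day 7 arrays, and in replicate 1 alone the adjusted p was 0.0573 (limma). The p53 target Gadd45a, which acts in growth arrest, rose by 1.16, with adjusted p = 0.0698 when the array set was a block over 6 arrays (limma). Of 14 genes of glycolysis 5 fell and 1 rose, with 1 to 4 that fell when an array was left out, and none passed in replicate 1 alone.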
